A study of Drosophila melanogaster with 4 samples.

Results

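The cells described here are neurons that held at least 1 UMI of *prt* and at least 1 UMI of *Dop1R2*. They were taken from 4 single-cell RNA libraries of *Drosophila* cells that had been sorted for membrane GFP. A cell was kept when it had 200 to 6000 genes with a UMI, where a UMI is the tag that marks 1 captured RNA molecule, and at most 5% of its UMIs on mitochondrial genes. A neuron was a kept cell with at least 1 UMI of *nSyb*, which encodes the synaptic vesicle protein neuronal Synaptobrevin, and no UMI of *dpn*, a transcription factor of neural stem cells (NSCs). Of 1952 such neurons, 78 carried both *prt* and *Dop1R2*, and the remaining 1874 are called other neurons. The members were therefore chosen by measured counts of 4 genes, and the levels of those genes are given as a description only.

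The study compared NSCs that rest with NSCs that have started to divide again. All cells carried *wor*-GAL4 driving UAS-mCD8-GFP, with no further allele or drug, so that the driver reports NSCs and the GFP they hand on to their progeny. Larval brains were collected at 24 h after larval hatching (24 h ALH, reactivation) in 2 pooled libraries, and embryos were collected at stage 17 (quiescence) in 2 pooled libraries. Neurons enter such a sort only as far as they hold GFP. The labels give brain as the tissue of all 4 libraries, whereas the methods name embryos for stage 17 and brains for 24 h ALH, so a difference in the tissue taken cannot be told apart from stage. The labels call the 2 libraries of a stage biological replicates and do not describe how they were separated.

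*prt* (portabella) encodes a protein related to the vesicular amine and acetylcholine transporters and is known from the mushroom body, the centre of olfactory learning in the insect brain. *Dop1R2* encodes a dopamine receptor that is enriched in the intrinsic neurons of the mushroom body, the Kenyon cells, and acts in memory and forgetting. Dopamine reaches Kenyon cells through this receptor and through Dop1R1, and the signal of Dop1R1 passes through adenylyl cyclase, cAMP and protein kinase A. The NSCs that make Kenyon cells are among the few that keep dividing while the others are quiescent.

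The 4 libraries held 53458971 and 33037729 UMIs at 24 h ALH and 2219533 and 15290553 UMIs at stage 17. The labels give the older 10x chemistry (v2) for stage 17 replicate 1 and v3 elsewhere. Members had a median of 20640 and 9694.5 UMIs at 24 h ALH and of 3686 and 9023 UMIs at stage 17, against 16749 and 10959 and against 4375 and 4676.5 UMIs in other neurons of the same libraries. Members were deeper in 2 of the 4 libraries, and an exact two-sided sign-flip permutation test of the medians over the libraries gave p = 0.625, in a design of 4 libraries that cannot reach the threshold of 0.05. The median mitochondrial share lay between 1.49% and 2.48% in members and between 1.71% and 2.5% in other neurons. Scrublet called 61 of the kept cells doublets, among them 1 member, and no member shared its barcode with a cell of another library.

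Members made up 5.02% of neurons in 24 h ALH replicate 1 (11 of 219 cells, exact 95% interval 2.53 to 8.81%) and 5.70% in replicate 2 (24 of 421, 3.69 to 8.36%). At stage 17 they made up 1.52% in replicate 1 (4 of 263, 0.416 to 3.85%) and 3.72% in replicate 2 (39 of 1049, 2.66 to 5.05%). These intervals cover counting error only. The shares at 24 h ALH were the higher ones, but a gate of 1 UMI depends on depth, and after every cell had been thinned to 1000 UMIs the shares were 2.03% and 3.43% at 24 h ALH and 0.976% and 0.549% at stage 17.

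Few members stood at the edge of the gate at 24 h ALH, and most did in stage 17 replicate 2. *prt* was found without *Dop1R2* in 7 and 7 neurons at 24 h ALH and in 7 and 46 neurons at stage 17. *Dop1R2* was found without *prt* in 61 and 102 neurons at 24 h ALH and in 57 and 317 at stage 17, so that it was widespread and *prt* decided most of the gate. Exactly 1 UMI of *prt* or of *Dop1R2* admitted 1 of 11 and 1 of 24 members at 24 h ALH, but 2 of 4 and 24 of 39 members at stage 17.

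**Figure D1:**
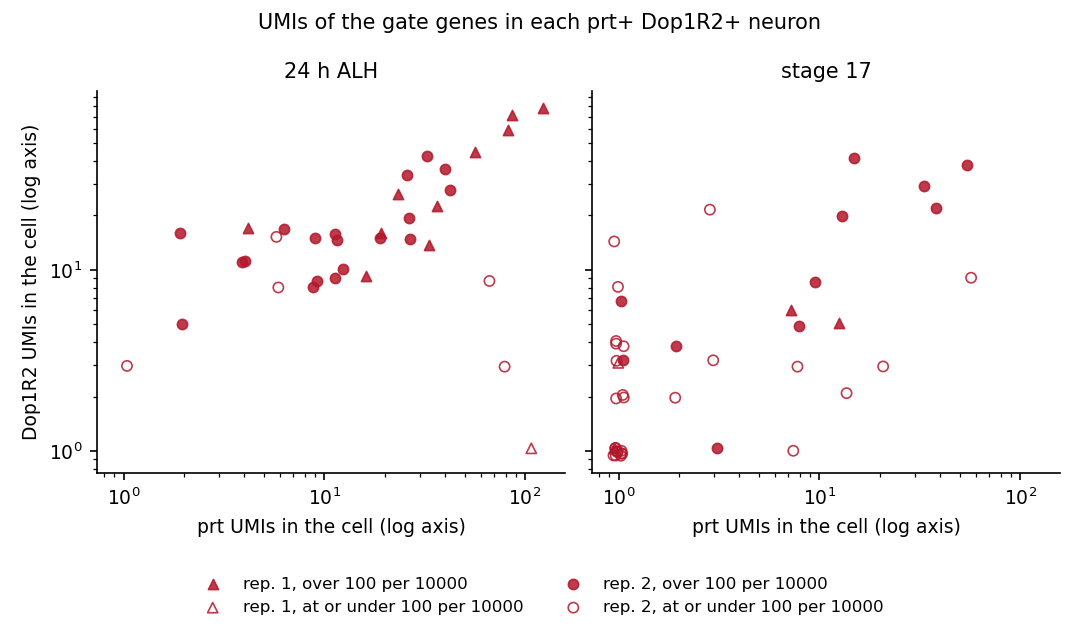
UMIs of *prt* (x) and *Dop1R2* (y) in each of the 78 members, on log axes with a small jitter, for 24 h ALH (left) and stage 17 (right). Triangles are replicate 1, circles are replicate 2, and filled symbols mark members with over 100 UMIs of the 13 Kenyon cell markers per 10000. Most 24 h ALH members stand well away from 1 UMI, while 24 of 39 members of stage 17 replicate 2 lie on the edge of the gate.

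The rule fixes that members hold more of the gate genes, so their detection is given only to show how it changed with depth. At 1000 UMIs per cell *prt* was still found in 81.8% and 75.0% of members at 24 h ALH and in 50% and 25.6% at stage 17, against 0% and 0.504% and against 1.63% and 0.990% of other neurons. *Dop1R2* was found in 54.5% and 75.0% of members at 24 h ALH and in 75.0% and 30.8% at stage 17, against 2.88% and 3.78% and against 7.72% and 8.61% of other neurons. Before thinning, 3.37% and 1.76% of other neurons at 24 h ALH and 2.70% and 4.55% at stage 17 had a *prt* UMI. Cells with *dpn* and no *nSyb*, which should lack *prt*, had one in 2.22% of 405 and 0.974% of 308 cells at 24 h ALH, at median depths of 66442 and 55917 UMIs, and in 0 of 15 and 0 of 7 cells at stage 17. Those cells were deeper than other neurons, and after thinning 0 and 1 of them still had *prt* at 24 h ALH. In 24 h ALH replicate 2 the 7 other neurons with *prt* held 150 UMIs of it, so a high *prt* level also stood outside the gate.

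The pooled level of the gate and marker genes is given as CPM, the UMIs of a gene per 1000000 UMIs summed over the members, or over the other neurons, of a library. *prt*, on chromosome 3R from 23696372 to 23699027 on the minus strand, was at 1857 and 1258 CPM in members at 24 h ALH and at 1295 and 441 CPM at stage 17, against 2.54 and 26.3 CPM and against 12.5 and 15.0 CPM in other neurons. *Dop1R2*, on the same strand of 3R from 29630304 to 29659984, was at 1174 and 1004 CPM in members at 24 h ALH and at 925 and 386 CPM at stage 17, against 41.1 and 45.3 CPM and against 93.4 and 91.9 CPM in other neurons. Positions here are those of the BDGP6 (dm6) annotation. Stage 17 replicate 2 had the lowest member level of both genes.

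*jdp*, *sals*, *Nep1* and *Rgk1* had been named beforehand as markers of these cells, so they too are described without a test. *jdp* (3R, 30517059 to 30527037), which encodes a J-domain protein of the DnaJ co-chaperone family, was the most abundant of them, with 5314 and 4046 UMIs in the members at 24 h ALH and 96 and 1955 UMIs in those at stage 17. That is 16722 and 11038 CPM at 24 h ALH and 5921 and 2755 CPM at stage 17 in members, against 486 and 478 CPM and against 411 and 412 CPM in other neurons. Every member at 24 h ALH had *jdp*, as did 3 of 4 and 35 of 39 members at stage 17. A *jdp* UMI alone was no mark of the members, since 49.4% and 69.6% of other neurons at stage 17 also had one.

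*Rgk1*, a small GTPase of the Rad, Gem and Kir family that is known from the mushroom body, was at 1879 and 1501 CPM in members at 24 h ALH and at 1480 and 534 CPM at stage 17, against 99.8 and 88.8 CPM and against 180 and 189 CPM in other neurons. *Nep1*, an endopeptidase of the neprilysin family that cuts peptides outside the cell, was at 642 and 336 CPM in members at 24 h ALH and at 617 and 158 CPM at stage 17, against 24.7 and 12.5 CPM and against 18.0 and 24.6 CPM in other neurons. Both genes were higher in members in each library, and for both the smallest gap was in stage 17 replicate 2.

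*sals* (sarcomere length short), an actin regulator first described in muscle, was nearly missing from members at stage 17. It was at 862 and 480 CPM in members at 24 h ALH and at 0 and 36.6 CPM at stage 17, against 2.08 and 4.39 CPM and against 2.77 and 4.30 CPM in other neurons. All 11 and 22 of 24 members had it at 24 h ALH, whereas at stage 17 it was in 0 of 4 and 6 of 39 members. The 0 in stage 17 replicate 1 allows up to 185 CPM, because its members held 16214 UMIs in all. The 7 muscle markers were low beside it, at 0.566 and 0.791 UMIs per 10000 in members at 24 h ALH, against 1.32 and 5.43 in other neurons, and *Tm2* was at 0 in those members.

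**Figure D2:**
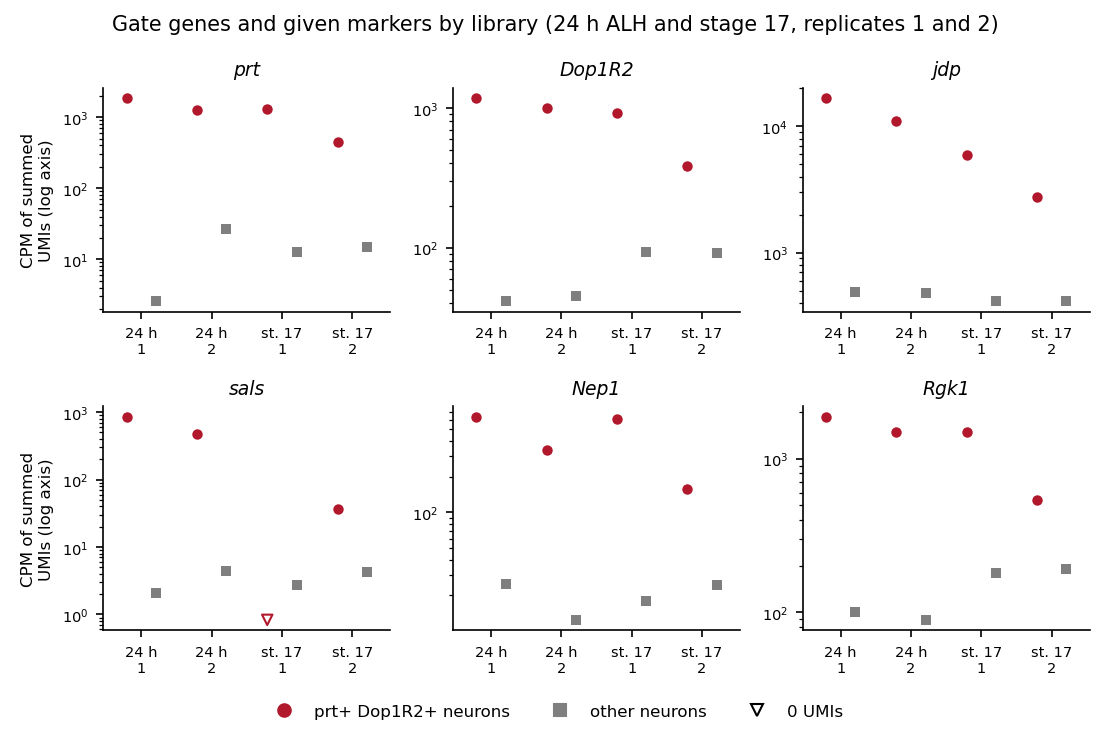
Level (CPM, log axis) of the gate genes *prt* and *Dop1R2* and of *jdp*, *sals*, *Nep1* and *Rgk1* in the summed members and the summed other neurons of each library. An open triangle marks 0 UMIs. Members lie above other neurons for each gene in each library except for *sals* in stage 17 replicate 1, which had 0 UMIs in 4 members.

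Whether the gated cells carry genes of mushroom body neurons was asked with a list of 13 Kenyon cell markers. The list holds the transcription factors *ey*, *toy*, *dac* and *Mef2*, the adhesion molecule *Fas2*, *trio*, *mub*, the cAMP pathway genes *rut*, *dnc* and *Pka-C1*, the receptors *Dop1R1* and *Oamb*, and the peptide gene *sNPF*. Members at 24 h ALH had a median of 254 (32.5 to 346) and 250 (19.3 to 318) UMIs of the list per 10000, against 33.3 and 34.1 in other neurons. Members at stage 17 had a median of 222 (39.3 to 255) and 48.1 (21.2 to 298), against 34.7 and 41.5 in other neurons.

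Between 80 and 125 per 10000 lay 2 of the 78 members. Over 100 per 10000 were 10 of 11 and 19 of 24 members at 24 h ALH and 3 of 4 and 11 of 39 members at stage 17, or 43 of 78 in all, against 63 of 1874 other neurons. The line at 100 was set after the values were seen and cuts a continuous score. In 3 libraries the median member carried several times the list level of the median other neuron, but in stage 17 replicate 2 the medians were 48.1 and 41.5. By range, other neurons reached 284 in stage 17 replicate 1, above its highest member at 255, and 139 in replicate 2. As a cell type, the label thus matched its markers for most members at 24 h ALH and went against them for most members of stage 17 replicate 2, which are called *prt* and *Dop1R2* positive neurons by rule only.

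**Figure D3:**
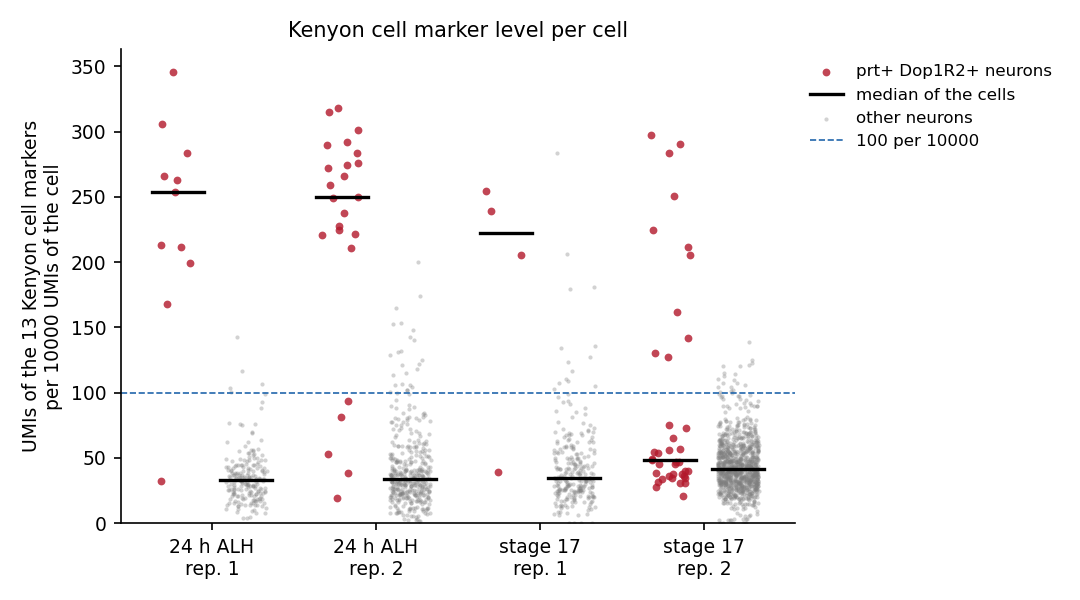
UMIs of the 13 Kenyon cell markers per 10000 UMIs in each cell, members left and other neurons right for each library, with the median as a bar and a dashed line at 100. Member medians are 254, 250 and 222 in 3 libraries and 48.1 in stage 17 replicate 2, where 11 of 39 members are over the line.

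The values at the edge of the gate followed the same split. Members with at least 2 UMIs of both genes had list medians of 258 and 250 per 10000 at 24 h ALH (10 and 23 cells) and of 247 and 128 at stage 17 (2 and 15 cells). Members with just 1 UMI of either gene were at 32.5 and 53.3 at 24 h ALH (1 and 1 cells) and at 122 and 45.5 at stage 17 (2 and 24 cells). Just outside the gate, neurons with *prt* and no *Dop1R2* were at 33.4 and 24.8 at 24 h ALH and at 64.8 and 47.4 at stage 17. In stage 17 replicate 2 depth moved with this split, with a median of 31927 UMIs in the 15 members with 2 or more UMIs of both genes and 6135 in the 24 others, and its part in the result was not tested.

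Within stage 17 replicate 2 the 11 members over the line differed from the other 28. Their *jdp* level was 7464 CPM, *Nep1* was in 11 of 11 of them, and *sals* had 24 UMIs in 4 of them. The other 28 members had *jdp* at 676 CPM, *Nep1* in 2 cells and 2 UMIs of *sals*. At 24 h ALH the members over the line had *jdp* at 17853 and 15977 CPM and *sals* in 10 of 10 and 19 of 19 cells, so even the high members of stage 17 replicate 2 had less of both. *Gad1* or *VGlut* was in 9 of the 11 members over the line in stage 17 replicate 2, against 3 of 29 members over it at 24 h ALH.

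Among members, genes of transmitter use set stage 17 replicate 2 apart from the other libraries. *VAChT*, the vesicular acetylcholine transporter, was found in 10 of 11 and 22 of 24 members at 24 h ALH and in 4 of 4 and 34 of 39 members at stage 17. *Gad1*, the enzyme that makes GABA, or *VGlut*, the vesicular glutamate transporter, was found in 2 of 11 and 3 of 24 members at 24 h ALH and in 0 of 4 members of stage 17 replicate 1, but in 34 of 39 members of stage 17 replicate 2. *twit*, a gene of the motor neuron list, was found in 20 of those 39, in 0 of 4 members of stage 17 replicate 1 and in 0 of 11 and 1 of 24 members at 24 h ALH. Genes of acetylcholine, GABA, glutamate and motor neurons were therefore found side by side among the members of that library, of which Scrublet called 1 a doublet. Other neurons there also held such genes widely, with *ChAT* or *VAChT* in 819 of 1010. That was 138 of 208 and 250 of 397 at 24 h ALH and 141 of 259 in stage 17 replicate 1. GABAergic and motor neuron markers of that library were at 4.65 and 6.88 UMIs per 10000 in members, against 7.61 and 9.25 in other neurons. Cholinergic and glutamatergic markers were at 13.8 and 8.33, against 12.2 and 6.95. What part free RNA had in these detections was not tested.

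Markers of NSCs, glia and haemocytes were checked in the same way. Summed NSC markers (*wor*, *ase*, *mira*, *grh*, *insc*) were at 0.252 and 0.109 UMIs per 10000 in members at 24 h ALH and at 0 and 0.352 at stage 17, against 1.80 and 1.06 and against 0.256 and 0.525 in other neurons. The 8 glial markers were at 2.58 and 6.19 in members at 24 h ALH and at 12.3 and 9.79 at stage 17, against 4.67 and 4.41 and against 12.9 and 11.8 in other neurons. The 4 haemocyte markers were at 0 and 0.164 in members at 24 h ALH, and their defining gene *Hml* was at 0 in both libraries. The defining glial gene *repo* was at 0 and 27.3 CPM in members at 24 h ALH, against 3.24 and 1.75 CPM in other neurons, with all 10 UMIs of replicate 2 in 1 member. The 6 markers of progenitors and newborn neurons were at 19.95 and 15.3 UMIs per 10000 in members at 24 h ALH, against 12.6 and 28.9 in other neurons, so the order of the groups differed between the libraries.

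To ask what else the members share, UMIs were summed over members and over other neurons of each library and compared with edgeR's quasi-likelihood test, with the library as a block and Benjamini-Hochberg adjustment over all genes tested. Stage 17 replicate 1 was left out of this fit because it had only 4 members. Of 7549 genes, 3 passed an adjusted p of 0.05 (0.0397%), all 3 higher in members, and 1149 had an unadjusted p under 0.05. By level alone, 480 of the tested genes (6.36%) were higher in members in all 4 libraries and 1976 (26.2%) were lower. These counts include stage 17 replicate 1, whose members held 16214 UMIs in all. A gene with no UMI in those members could not count as higher, and it was lower there if other neurons had a UMI. The excess of lower genes therefore cannot be read as a balance of directions.

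*CG34402* led, at 529 and 210 CPM in members at 24 h ALH and at 370 and 88.8 CPM at stage 17, against 5.08 and 3.33 CPM and against 0.692 and 1.36 CPM in other neurons. Its difference was 6.25 ± 0.30 on the log2 scale (SE, adjusted p = 0.00183, edgeR). The member level was the higher one in each library, and in stage 17 replicate 1, which the fit did not use, it rested on 6 UMIs in 1 cell. The gene lies on 3R from 12386249 to 12402902 and carries no further name in the annotation.

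*arc* (*a*), which encodes a PDZ-domain protein, was at 154 and 123 CPM in members at 24 h ALH and at 123 and 47.9 CPM at stage 17, against 2.54 and 2.81 CPM and against 0.692 and 1.99 CPM in other neurons. It was higher by 5.31 ± 0.37 (log2, adjusted p = 0.0104, edgeR). *Dif*, a transcription factor of the NF-kB family known from Toll signalling, was at 286 and 314 CPM in members at 24 h ALH and at 247 and 134 CPM at stage 17, against 28.4 and 56.5 CPM and against 13.8 and 16.9 CPM in other neurons, a difference of 2.95 ± 0.26 (log2, adjusted p = 0.0314, edgeR). *CG34402*, *arc* and *Dif* were each found in more than 10 members over the 4 libraries, with 22 of 24 members of 24 h ALH replicate 2 carrying *Dif*.

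The count of 3 depended on the setting. With stage 17 replicate 2 kept, it was 184 with DESeq2 and 158 at a maximum of 10% mitochondrial UMIs. At that maximum stage 17 replicate 1 had 5 members and entered the fit too, so the set of libraries also changed. With all 4 libraries, a fit added after the data were seen, it was 281. It moved most when stage 17 replicate 2 was left out. Without that library, the fit held the 2 libraries at 24 h ALH only. In it 1095 of 7035 genes passed (15.6%), 541 higher (7.69%) and 554 lower (7.87%) in members. The median difference of all genes was -0.14 on the log2 scale in this fit. This fit was chosen for a closer look after the data had been seen and rests on 2 libraries of each class. The differences given next for 24 h ALH come from it. With stage 17 replicate 2 in the fit, each named gene that passed at 24 h ALH kept its sign, but only *CG34402*, *arc* and *Dif* passed. Asking for at least 2 UMIs of both gate genes in the 3 libraries gave 342 of 7448 genes (4.59%), and 272 of those 342 were among the 1095, all in the same direction. That gate kept 10 of 11 and 23 of 24 members at 24 h ALH, so the 2 fits share most cells and their shared direction is no separate check.

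*Rab27*, *Dop1R1* and *Pka-R2* were among the 12 largest rises at 24 h ALH. *Rab27*, a small GTPase of secretory vesicles, was at 1111 and 709 CPM in members at 24 h ALH, against 36.1 and 43.2 CPM in other neurons, and rose by 4.72 ± 0.27 (log2, adjusted p = 0.000354, edgeR). *Dop1R1*, the other excitatory dopamine receptor of Kenyon cells, was at 1523 and 1160 CPM in members, against 91.3 and 93.9 CPM in other neurons (4.07 ± 0.17, adjusted p = 3.44e-05, edgeR). *Pka-R2*, a regulatory subunit of protein kinase A, was at 5809 and 4275 CPM in members, against 466 and 440 CPM in other neurons (3.69 ± 0.13, adjusted p = 3.43e-05, edgeR). By level, these 3 genes were higher in members in both stage 17 libraries as well.

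*Mef2*, *ab* and *sNPF* also rose. *Mef2*, a MADS-box factor of Kenyon cells and muscle, was at 1416 and 1135 CPM in members at 24 h ALH, against 92.0 and 111 CPM in other neurons (3.87 ± 0.19, adjusted p = 6.41e-05, edgeR). *ab* (abrupt), a BTB zinc finger factor, was at 1350 and 944 CPM in members, against 113 and 97.6 CPM in other neurons (3.65 ± 0.16, adjusted p = 3.44e-05, edgeR). *sNPF*, which encodes short neuropeptide F, was at 1652 and 876 CPM in members, against 133 and 120 CPM in other neurons (3.48 ± 0.23, adjusted p = 0.000418, edgeR). At stage 17 the member levels of these 3 genes were 555 and 388, 1850 and 413, and 1048 and 223 CPM, against 67.1 and 121, 167 and 152, and 118 and 75.0 CPM in other neurons, so replicate 2 again had the smaller gap.

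The rest of the 12 largest rises were *CG34402* (6.58), *arc* (5.87), *CG11835* (5.84), *CG10947* (4.37), *CG32392* (3.79) and *Rgk3* (3.70), each with its log2 difference. *Rgk3* belongs to the family of *Rgk1* and was at 330 and 265 CPM in members at 24 h ALH, against 27.3 and 26 CPM in other neurons. *CG11835* was at 116 and 30.0 CPM in members and at 0.231 and 2.11 CPM in other neurons, and at stage 17 it had no UMI in members. That absence allows up to 185 and 4.23 CPM in the 2 stage 17 libraries.

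**Figure D4:**
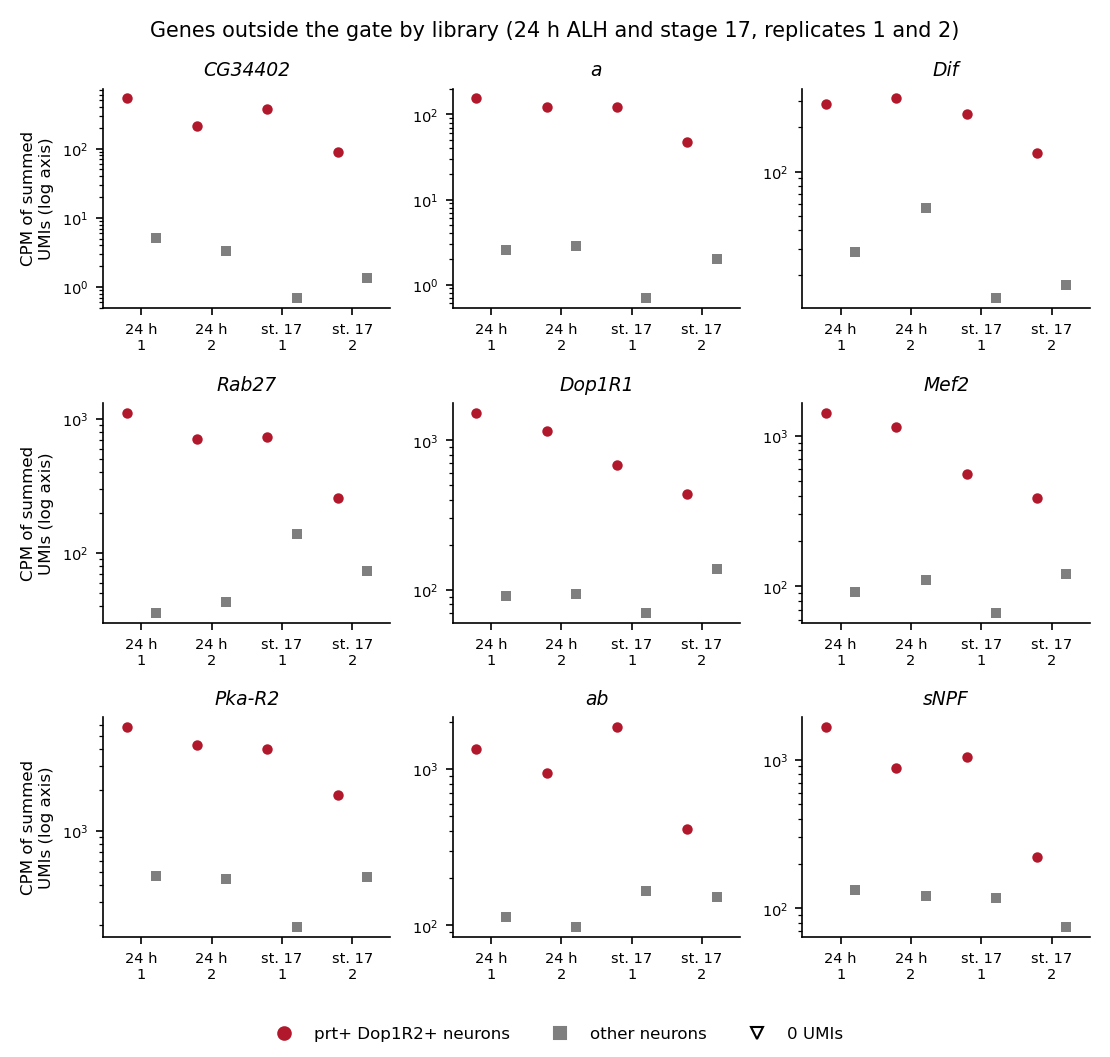
Level (CPM, log axis) of 9 genes in the summed members and the summed other neurons of each library. *CG34402*, *a* and *Dif* passed the test over 3 libraries, and *Rab27*, *Dop1R1*, *Mef2*, *Pka-R2*, *ab* and *sNPF* passed it at 24 h ALH only. As a ratio, the gap is smallest in stage 17 replicate 2 for all of them except *CG34402* and *Dif*.

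Of the 13 Kenyon cell markers, 9 were higher in members at 24 h ALH and none was lower, with a median difference of 2.67 (log2) against -0.14 for all genes. The 9 were *toy*, *Mef2*, *Fas2*, *trio*, *Pka-C1*, *rut*, *dnc*, *Dop1R1* and *sNPF*. *Fas2*, a homophilic adhesion molecule of axon bundles, was at 2772 and 1891 CPM in members, against 438 and 309 CPM in other neurons (2.87 ± 0.12, adjusted p = 3.43e-05, edgeR). *ey*, *dac*, *mub* and *Oamb* did not pass, although *mub* was at 4544 and 4114 CPM in members, against 547 and 1153 CPM in other neurons. All 13 markers had a fitted difference above 0, and 11 of 13 were higher in members in all 4 libraries. With stage 17 replicate 2 in the fit the median was 2.11 and 0 of the 13 passed in edgeR, while all 13 had an unadjusted p under 0.05 and DESeq2 called 10.

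The cAMP pathway moved in both directions, mostly upwards. Of 20 tested genes of this list, 10 were higher in members at 24 h ALH and 2 were lower, with a median of 0.79. *rut*, the calcium-dependent adenylyl cyclase of olfactory learning, was at 548 and 319 CPM in members, against 67.7 and 57.4 CPM in other neurons (2.98, log2). *dnc*, the phosphodiesterase that breaks cAMP down, was at 3981 and 2851 CPM in members, against 743 and 722 CPM in other neurons (2.43), and *Pka-C1*, the catalytic subunit of protein kinase A, rose by 2.94. Enzymes that make cAMP, degrade it and respond to it were thus all among the genes that rose, and *rut*, *dnc* and *Pka-C1* are also on the list of Kenyon cell markers. *Ac78C*, a further adenylyl cyclase, rose by 3.31 and *Pka-R1*, *Pde1c*, *Pde8*, *Galphas* and *Gbeta13F* also passed. *Akap200*, an anchor of protein kinase A, was at 132 and 216 CPM in members, against 540 and 636 CPM in other neurons (-1.55), and *Galphai*, the inhibitory G protein subunit, was at 3.15 and 5.46 CPM in members, against 62.6 and 47.6 CPM in other neurons.

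Of 15 receptors for dopamine, octopamine, tyramine and serotonin, 5 were higher and 1 was lower in members at 24 h ALH, with a median of 0.27. *Dop2R*, the inhibitory dopamine receptor, was at 790 and 652 CPM in members, against 200 and 210 CPM in other neurons (2.03 ± 0.17, adjusted p = 0.000439, edgeR). *Dop1R1*, *DopEcR*, which responds to dopamine and to ecdysone, *Octbeta1R* (1.81) and *Octbeta3R* also passed, and *Octbeta2R* was lower, at 81.8 and 79.1 CPM in members, against 176 and 173 CPM in other neurons (-0.89). The 3 dopamine receptor genes of the list thus all rose beside *Dop1R2*, which the gate had chosen. In stage 17 replicate 2 *Dop2R* was at 379 CPM in members, against 291 CPM in other neurons, and *Octbeta2R* was at 459 CPM in both.

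The genes for making dopamine and other amines went the other way. Of 6 tested genes of the aminergic list, 4 were lower in members at 24 h ALH and none was higher. *Vmat*, the vesicular monoamine transporter, had 3 UMIs in the 35 members at 24 h ALH, and the pooled level in other neurons was 136 times that in members (interval 46.4 to 658, counting error only). *Gad1* had 2 UMIs in those members, and the pooled level in other neurons was 100.2 times theirs (27.7 to 827). *VGlut* did not pass, at 6.29 and 344 CPM in members, against 271 and 534 CPM in other neurons, with 126 UMIs in 2 members of replicate 2. *VAChT* was higher in members, at 891 and 865 CPM, against 328 and 364 CPM in other neurons (1.57 ± 0.14, adjusted p = 0.000615, edgeR), and *CG7708*, annotated as the choline transporter *ChT*, rose by 0.91. *ChAT*, which makes acetylcholine and overlaps *VAChT* on the same strand, was at 305 and 207 CPM in members and 246 and 210 CPM in other neurons and did not pass.

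Receptors and channels that act at synapses showed smaller rises. Of 11 acetylcholine receptor genes 5 were higher and none was lower, with a median of 0.68. *nAChRalpha5*, a nicotinic subunit, was at 1643 and 2013 CPM in members, against 849 and 891 CPM in other neurons (1.29), and *mAChR-B*, a muscarinic receptor that inhibits adenylyl cyclase, was at 116 and 65.5 CPM in members, against 23.1 and 22.1 CPM in other neurons (2.19). Of 12 receptors for GABA and glutamate, *Rdl* and *GluRIB* rose, with a list median of 0.38. Of 18 channels 6 rose and 1 fell, with a median of 0.35, among them *Sh*, a voltage-gated potassium channel, by 1.05 and *para*, the voltage-gated sodium channel, by 0.82.

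Transmitter release genes rose in 13 cases. Of 22 tested genes these were higher and none was lower in members at 24 h ALH, with a median of 0.77. *cpx* (complexin), a clamp of vesicle fusion, was at 6331 and 4766 CPM in members, against 1740 and 1847 CPM in other neurons (1.84 ± 0.14, adjusted p = 0.000541, edgeR). *brp* (bruchpilot), a scaffold of the active zone, was at 850 and 1072 CPM in members, against 361 and 410 CPM in other neurons (1.54), and *Rim*, an active zone protein, rose by 1.21. In stage 17 replicate 2 the 3 genes were at 3793, 1012 and 1365 CPM in members, against 3525, 929 and 1313 CPM in other neurons. *nSyb* was a gate gene of all neurons and is not counted as a result. Of the calcium channel and Rgk genes 4 of 8 rose (median 0.81), namely *Rgk3*, *Ca-beta*, *cac* and *Ca-alpha1D*. Of the 4 genes of the peptidergic list, the 3 tested rose (*Phm*, *amon*, *Pal2*, median 1.16). The remaining gene, *dimm*, was not tested and had no UMI in members at 24 h ALH, while other neurons of both libraries had it.

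Genes known from memory formation followed the Kenyon cell markers in part. Of 10 tested genes, 7 were higher and none was lower at 24 h ALH, with a median of 0.89. *rad* (radish), a gene of anaesthesia-resistant memory, was at 3424 and 3847 CPM in members, against 603 and 467 CPM in other neurons (3.0 ± 0.15, adjusted p = 6.13e-05, edgeR). *14-3-3zeta* (leonardo), an adaptor protein that is rich in Kenyon cells, was at 21162 and 14280 CPM in members, against 4358 and 4229 CPM in other neurons (2.25). *CaMKII* (1.20), *CASK* (1.04), *orb2* (0.74), *Appl* (0.62) and *Fas2* made up the rest. The list shares *Fas2* with the Kenyon cell markers.

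**Figure D5:**
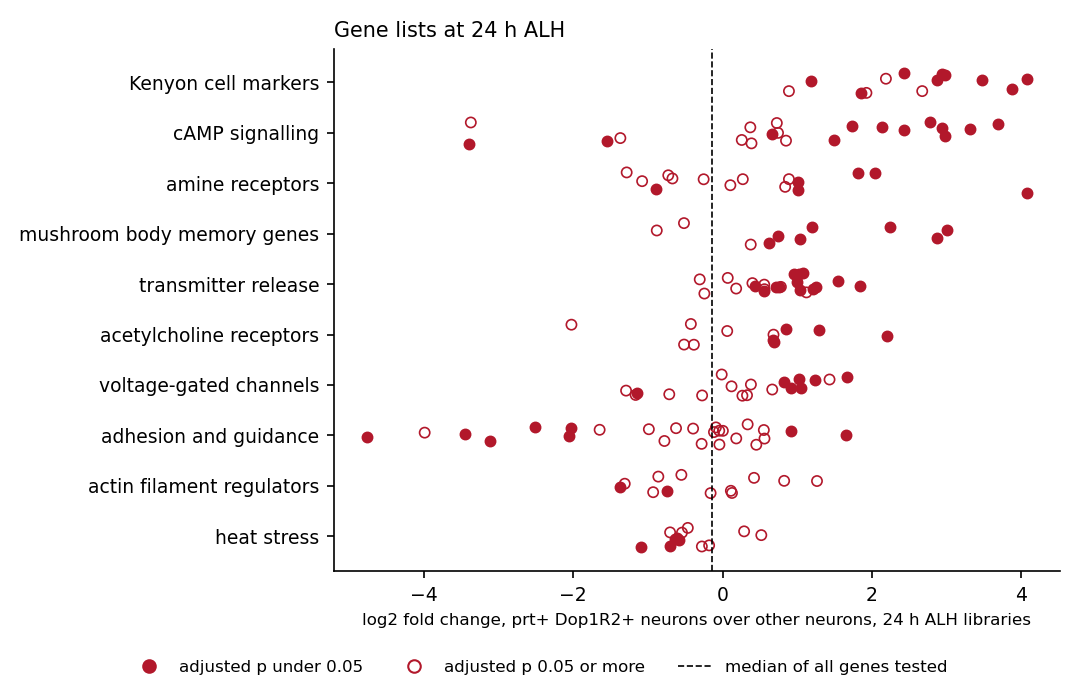
Difference (log2, members over other neurons, 24 h ALH libraries only) of each tested gene in 10 gene lists. Filled points passed an adjusted p of 0.05 in edgeR, the dashed line is the median of all genes at -0.14, and genes with 0 UMIs in members are left out. The Kenyon cell markers reach furthest to the right, with all 13 above 0.

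Axon guidance and adhesion genes were more often lower than higher. Of 25 tested genes 6 were lower and 2 higher in members at 24 h ALH, with a median of -0.28. *Fas3*, a homophilic adhesion molecule, was at 3.15 and 5.46 CPM in members, against 172 and 115 CPM in other neurons, on 1 and 2 UMIs. *trn* (tartan), a leucine-rich repeat surface protein, was at 15.7 and 24.6 CPM in members, against 251 and 265 CPM in other neurons (-3.44 ± 0.28, adjusted p = 0.000418, edgeR). *Nlg4*, *Toll-6* (-2.05), *robo2* and *fra* also fell, while *Nrx-1* (0.92) and *Nlg3* (1.65), which encode synaptic adhesion partners, rose. The 2 rises were a share near the 7.69% of all genes, and *Nlg4*, a neuroligin like *Nlg3*, had the opposite sign.

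Genes of progenitors and NSCs were lower in part in members at 24 h ALH. Of 6 genes of progenitors and newborn neurons 3 were lower and none higher, and of 5 NSC markers 3 were lower. *nerfin-1*, a zinc finger factor of newly formed neurons, was at 3.15 and 5.46 CPM in members, against 105 and 107 CPM in other neurons, and *Hey*, a Notch target in newborn neurons, was at 9.44 and 13.6 CPM, against 87.6 and 152 CPM in other neurons. *pros* (prospero), which acts in the step from progenitor to neuron, ran the other way by level, at 1976 and 1342 CPM in members, against 345 and 845 CPM in other neurons, but did not pass the test. Temporal factors were split, with *ab*, *Imp*, *br* and *ftz-f1* higher and *chinmo* lower (-0.65) of 10 tested.

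Heat shock genes, which can mark stress of dissociation, were lower in 5 of 12 cases and higher in none, with a median of -0.56. *Hsp23*, a small heat shock protein, was at 891 and 1301 CPM in members at 24 h ALH, against 2035 and 2085 CPM in other neurons (-0.70), and *Hsp83*, the Hsp90 homologue, was at 1001 and 1228 CPM, against 1652 and 2465 CPM in other neurons (-0.64). Among actin regulators, listed because of *sals*, 2 of 13 were lower and none was higher, with a median of -0.55, and *chic* (profilin) fell by 1.37. Of 7 muscle markers 5 were lower in members. Of the bZIP factors 1 of 10, *cnc*, was lower. The 1 other neprilysin and the 4 glial markers tested gave 0 calls at 24 h ALH (edgeR) and 0 at an unadjusted p under 0.05. *twit* of the 5 motor neuron genes was lower, and 2 of 4 tracheal genes and the 1 haemocyte gene tested were lower.

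The largest falls at 24 h ALH were genes with no UMI in the 35 members, whose floor of 3 UMIs over both libraries is 4.38 CPM. *Pdf*, the peptide of clock neurons, was at 1550 and 227 CPM in other neurons, at least 182-fold higher than in members. *Ubx* and *abd-A*, Hox genes of thorax and abdomen, were at 204 and 183 CPM and at 85.1 and 90.9 CPM in other neurons, at least 43.9-fold and 20.2-fold higher than in members. Both Hox genes are known from the nerve cord rather than the central brain. *Jon25Biii* and *Jon99Cii*, digestive serine proteases of the gut, *CG7203*, the cuticle gene *Cpr100A* and the peptidase gene *Ance* made up the remaining 5, with bounds between 23.6-fold and 56.5-fold. They stood mainly in 1 of the 2 libraries of other neurons, as with *Ance* at 14.1 and 190 CPM.

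Members of 1 library also differed among themselves. In 24 h ALH replicate 1 and 2 *jdp* ranged over 28.8 to 253 and over 7.54 to 241 UMIs per 10000 between members, around medians of 169 and 132. *jdp* and *sNPF* per 10000 UMIs had a Spearman's rho of 0.855 over 11 cells and 0.917 over 24 cells at 24 h ALH and of 0.359 over the 39 members of stage 17 replicate 2. *ab* and *sNPF* had rho of 0.0909 and 0.0526 at 24 h ALH and of 0.346 in stage 17 replicate 2, so the pairs differed by value at 24 h ALH and hardly at stage 17. *ab* had rho of 0.527, 0.617 and 0.706 with *Rgk1* and of 0.555, 0.505 and 0.324 with *Dop1R2* in the same 3 libraries.

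*prt* had rho of -0.246, -0.117 and 0.311 with *ab* and of 0, 0.257 and 0.516 with *Dop1R2*, each highest in stage 17 replicate 2. *prt* and *Dop1R2* are gate genes, and in that library 22 and 13 of 39 members had exactly 1 UMI of them. For those cells depth alone set the value per 10000 UMIs, so the higher rho there cannot be read apart from gate and depth. *jdp* followed the summed Kenyon cell markers with rho of 0.655, 0.613 and 0.606, and *Rgk1* followed *Mef2* with 0.573, 0.551 and 0.618. Members shared a library but differed in depth, from 2669 to 74067 UMIs in stage 17 replicate 2. The values describe the members without a test. Of the pairs given, *jdp* with *sNPF* had the highest rho at 24 h ALH, and *Rgk1* with *ab* or *Mef2* had rho above 0.5 in each of the 3 libraries.

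A further comparison of the design asks whether members at 24 h ALH differed from members at stage 17, 2 libraries against 2. With fewer cells and 16214 UMIs in the members of stage 17 replicate 1, the fit could test 3463 genes, and 73 of them passed (2.11%, edgeR), 29 higher (0.837%) and 44 lower (1.27%) at 24 h ALH. By level alone, the stages did not overlap for 44.9% of the tested genes. Without stage 17 replicate 1 the count was 644 and without replicate 2 it was 32, and it was 103 and 244 without 24 h ALH replicate 1 or 2, so each library moved it. Scaling by upper quartiles gave 195 genes, 62.1% of them higher at 24 h ALH in place of 39.7%. DESeq2 gave 20, of which 5% were higher, so the balance of directions moved with the scaling and the tool.

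The genes with the largest rises in members at 24 h ALH also rose in other neurons. *scu* (scully), a mitochondrial dehydrogenase, was at 53.5 and 57.3 CPM in members at 24 h ALH and at 0 and 1.41 CPM at stage 17, where replicate 2 had 1 UMI, and the pooled ratio was 40.3 (interval 6.81 to 1633, adjusted p = 0.0266, edgeR). *CG2862* was at 88.1 and 123 CPM in members at 24 h ALH and at 0 and 4.23 CPM at stage 17, a ratio of 25.8 (8.49 to 128, adjusted p = 0.0266, edgeR). *CG6180*, *CG4390*, *CG10638* and *CG7985* completed the 6 largest rises, with ratios of 48.8, 41.4, 37.1 and 26.5 on 1 or 2 UMIs at stage 17. In DESeq2 none of these 6 rises passed, with fitted values of 4.12 to 4.54 on the log2 scale. In other neurons the same 6 genes were higher at 24 h ALH by 2.42 to 4.97 on the log2 scale, and each passed the test there, where 2387 of 8168 genes (29.2%) did.

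Genes that fell were carried by few cells at stage 17. *kn* (knot), a transcription factor of the EBF family, was at 3.15 and 0 CPM in members at 24 h ALH and at 1357 and 190 CPM at stage 17, where all 22 UMIs of replicate 1 came from 1 cell. Its pooled level was 148 times higher at stage 17 (26.2 to 5883, adjusted p = 0.0452, edgeR). *eya* (eyes absent), a phosphatase and transcription cofactor, had no UMI in members at 24 h ALH and was at 123 and 86.0 CPM at stage 17, in 1 and 4 cells, so it was at least 19.8-fold lower at 24 h ALH. *trh* (trachealess), a bHLH-PAS factor, *Pdf*, *CG4982* and *CG34267* also had no UMI in members at 24 h ALH, and in stage 17 replicate 1 each rested on 1 UMI. Their levels were at least 15.1-fold, 13.5-fold, 11-fold and 10.7-fold lower at 24 h ALH. In DESeq2 *kn* and *eya* passed, whereas *trh*, *Pdf*, *CG4982* and *CG34267* did not. With *prt* alone as the gate the direction of *Pdf* turned, to a fitted 7.1 (log2) in favour of 24 h ALH.

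Of the adhesion list, 4 of 22 tested genes were lower and none was higher at 24 h ALH in members, and 7 of 25 were lower in other neurons. Over all genes tested, 1.27% were lower in members and 11.6% in other neurons. *trn* was at 15.7 and 24.6 CPM in members at 24 h ALH and at 740 and 259 CPM at stage 17 (-4.08 ± 0.56, adjusted p = 0.0266, edgeR), and *Toll-6*, a Toll-family surface protein, was at 44.1 and 68.2 CPM at 24 h ALH and at 432 and 476 CPM at stage 17 (-2.92 ± 0.48, adjusted p = 0.0324, edgeR). *Fas3* and *Nlg4*, a neuroligin, were the others. In other neurons *Toll-6* (-1.64) and *Nlg4* (-1.41) were lower at 24 h ALH and passed, while *trn* (-0.83) and *Fas3* (-1.04) did not.

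By stage, 0 of the 13 Kenyon cell markers passed in members in edgeR or in DESeq2, and 9 had an unadjusted p under 0.05 in edgeR. Of them 12 had a fitted difference above 0, and the median was 1.12 against 0.04 for all genes. *Mef2* was at 1416 and 1135 CPM in members at 24 h ALH and at 555 and 388 CPM at stage 17 (1.66 ± 0.37, adjusted p = 0.0727, edgeR), and the stages did not overlap. *Fas2* was at 2772 and 1891 CPM at 24 h ALH and at 4441 and 962 CPM at stage 17, with the 24 h ALH values between those of stage 17. Stage 17 replicate 2, where 28 of 39 members were at or under 100 UMIs of this list per 10000, was the low library for both. Of the other lists, 2 of 3 tested muscle genes (*up*, *Mlc2*) and *trh* of the tracheal list were lower and *Hsp70Ab* was higher at 24 h ALH. The rest gave 0 calls in edgeR and in DESeq2, with between 0 and 5 genes of a list at an unadjusted p under 0.05.

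Whether members differed from other neurons by a different amount at the 2 stages was tested as an interaction of class and stage over all 4 libraries, and 261 of 6616 genes passed (3.94%, edgeR), 131 with a positive value (1.98%) and 130 with a negative one (1.96%), where a positive value means that members stood higher relative to other neurons at 24 h ALH than at stage 17. DESeq2 called 55, and edgeR called 0 with cells thinned to 1000 UMIs (182 at an unadjusted p under 0.05) and 0 without the library block (681), so these calls depended on the setting. *Rab27* had a higher value at 24 h ALH by 2.99 ± 0.55 (log2, adjusted p = 2.16e-05, edgeR), and *Fas2* by 2.35 ± 0.45 (adjusted p = 4.71e-05, edgeR). In other neurons *Fas2* was lower at 24 h ALH and passed, while its member levels at 24 h ALH lay between those of stage 17. *Dop1R1* (2.10) and *Mef2* (1.99) also passed, whereas *CG34402* (0.21), *arc* (1.17), *Dif* (0.06) and *Pka-R2* (0.93) did not. This contrast included stage 17 replicate 2 with its low members. The count was 53 without it, 395 without stage 17 replicate 1 and 77 and 44 without 24 h ALH replicate 1 or 2. The part of its mixed members in these differences cannot be told apart from stage.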

How the data were processed

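Single cells sorted for GFP were sequenced in 4 libraries of the 10x Chromium system, which were grouped by their labels. The count values are raw, with no scaling by the authors, and give for each of 14240 genes the UMIs in every cell that Cell Ranger called (version 3.0.2 in the file headers, 3 in the labels, a later one in the methods). The labels name the dm6 build. The filter left 3567 of 4152 cells. Doublets called with Scrublet (scanpy 1.11.5) were kept except in an alternative.

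UMIs were added up over the cells of a class in each library and compared with edgeR 4.0.16 in R 4.3.3 (TMM, filterByExpr, robust quasi-likelihood test, Benjamini-Hochberg adjustment over all genes tested). The comparison with other neurons had the library as a block and needed at least 5 members in a library. The stage comparison set 2 libraries against 2, and the interaction used all 4. DESeq2 1.42.0 and other scaling, filters, gates and library choices were alternatives, and the tests were checked on simulated counts. Intervals are exact, at 95%, and cover counting error only.

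Members, markers and 27 gene lists were chosen with earlier results of these data known. Besides gate, marker and list genes, the genes named are the 12 largest rises and 8 largest falls against other neurons, the 6 largest in each direction by stage and the 5 largest interactions, at an adjusted p under 0.05 and at least 50 CPM in the higher group. Genes named against other neurons also had the same direction in every library, and genes named by stage had no overlap of the stages. At 24 h ALH both its libraries had to share the direction. Positions came from the Ensembl annotation of BDGP6. The study's cell annotation was not used here.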

Additional observations from a re-analysis of the deposited data

Results flagged for a closer look

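The interaction test of edgeR asked whether the difference between members and other neurons was itself different between the stages. Of the 261 genes that passed it, the 5 largest under the naming rule are given here. All 5 had no UMI in the 35 members at 24 h ALH, so the fitted sizes depend on the prior count and are no bounds, and at stage 17 all rested mainly on replicate 2. *Pdf* had the largest value, at -13.83 on the log2 scale (adjusted p = 2.42e-14). It was at 0 and 0 CPM in members at 24 h ALH and at 61.7 and 59.2 CPM at stage 17, against 1550 and 227 CPM and against 0 and 81.6 CPM in other neurons. Its direction turned to 8.36 with *prt* alone as the gate. The gut protease genes *Jon99Fi* (-11.55, adjusted p = 1.04e-05) and *Jon25Biii* (-11.46, adjusted p = 4.07e-05) had 12 and 9 UMIs in members at stage 17. *Ets65A*, a transcription factor of the ETS family, came to -11.47 (adjusted p = 2.46e-07) on 123 UMIs in 8 members of stage 17 replicate 2. Without that library *Ets65A* came to -0.010, *Jon25Biii* to -6.70, *eya* to -9.40, *Jon99Fi* to -10.32 and *Pdf* to -23.19. *eya* came to -11.18 (adjusted p = 9.28e-08) on 63 UMIs in 5 members at stage 17.

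The gate left out 15 cells that had *prt* and *Dop1R2* but also *dpn*. There were 8 and 1 of them at 24 h ALH and 1 and 5 at stage 17. Their median of Kenyon cell markers was 36.1 and 41.5 UMIs per 10000 at 24 h ALH and 21.6 and 47.6 at stage 17, below the member medians of the same libraries, and their median depth in 24 h ALH replicate 1 was 69802.5 UMIs. A further 9 cells met the conditions on UMIs but had over 5% mitochondrial UMIs, 1 and 8 of them at stage 17 and 0 at 24 h ALH. The 8 cells of stage 17 replicate 2 had a median of 205 UMIs of Kenyon cell markers and 27.4 UMIs of *jdp* per 10000, above the 48.1 and 5.98 of the members kept there, and the 1 cell of replicate 1 was at 37.8 and 0.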

How the results depend on the processing

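Counts of genes that passed depended on the processing. The comparison with other neurons (3 genes) gave 5 with upper-quartile factors, 184 with DESeq2, 55 with no low-count filter, 342 with at least 2 UMIs of both gate genes, 45 with *prt* alone as the gate, 87 with thinned cells, 158 at 10% mitochondrial UMIs, 1 against other neurons with *ChAT* or *VAChT*, and, chosen after seeing the data, 281 with all 4 libraries and 1095 at 24 h ALH only. Stage 17 replicate 1 entered the fits with *prt* alone and at 10% mitochondrial UMIs, where it had 11 and 5 members. The set of libraries thus changed there too. Leaving out 1 library gave 3 to 1095. Upper-quartile factors moved the median difference of all genes to -0.12, against -0.24 with TMM, and DESeq2 split its calls 98 higher and 86 lower. The stage comparison of members (73 genes) gave 195 with upper-quartile factors, 20 with DESeq2, 561 with no low-count filter, 249 with at least 2 UMIs, 276 with *prt* alone, 9 with thinned cells and 32 to 644 without 1 library, and its median was 0.24 by upper quartiles against 0.04 by TMM. In other neurons the stage count (2387) ranged over 419 to 3432 without 1 library. The interaction (261) gave 55 with DESeq2, 65.5% of them positive in place of 50.2%, 168 with *prt* alone, 0 with thinned cells (182 at an unadjusted p under 0.05, edgeR), and 44 to 395 without 1 library. *Pdf* turned to 7.1 by stage and 8.36 in the interaction with *prt* alone. The causes were not tested.

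Shares of members moved most at stage 17, to 4.18% in replicate 1 with *prt* alone, and in replicate 2 to 1.43% with at least 2 UMIs, 8.10% with *prt* alone and 0.549% after thinning. At 24 h ALH thinning gave 2.03% and 3.43%.

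The replicate numbers did not pair the libraries by any label, and with 2 pairs same-numbered members correlated at 0.172. A replicate block in the stage comparison gave 207 genes in members and 2760 in other neurons. Without the library block the comparison with other neurons gave 2 and the interaction 0 (681 at an unadjusted p under 0.05, edgeR). Depth limits stage 17 replicate 1 most, where 3 UMIs in members are 185 CPM.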

Other observations

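Hox genes, which set position along the body axis, were looked at after their values had been seen. The 8 genes summed to 0 and 5.46 CPM in members at 24 h ALH and to 925 and 1714 CPM at stage 17, against 598 and 622 CPM and against 3463 and 3206 CPM in other neurons. A Hox UMI was found in 0 of 11 and 2 of 24 members at 24 h ALH and in 1 of 4 and 32 of 39 members at stage 17. In stage 17 replicate 2 these were 6 of the 11 members over 100 UMIs of Kenyon cell markers per 10000 and 26 of the other 28.

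Outside the gate, 63 other neurons passed 100 UMIs of Kenyon cell markers per 10000. Of them 41 had *jdp*, 10 had *Dop1R2*, 10 had *sNPF* and 5 had *prt*. Within the gate at 24 h ALH, 2 members combined much *prt* with little *Dop1R2*, with 106 and 75 UMIs of *prt* and 1 and 3 UMIs of *Dop1R2*. Both lacked *VAChT*, had 69 and 46 UMIs of *jdp*, and were at 32.5 and 19.3 UMIs of Kenyon cell markers per 10000, the lowest values of their libraries.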
